A study of Mus musculus with 6 samples.

Results

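Transforming growth factor beta (TGF-beta) ligands and receptors were represented by 8 genes of the 35727 in the deposited mouse count table: the ligands Tgfb1, Tgfb2 and Tgfb3, the signalling receptors Tgfbr1 and Tgfbr2, the co-receptors Tgfbr3 (betaglycan) and Eng (endoglin), and Acvrl1 (ALK1). They were chosen by gene symbol, with earlier results of these data known. All 8 were among the 12819 genes that passed the filter on low counts. In shPostn cells Eng fell to 19.6% of its control level and Tgfb3 rose 1.54-fold, while the other 6 genes did not pass the test. Tgfb3 no longer passed once the median change of each chromosome was taken out. Eng kept its call in 10 of 16 alternative settings. Tgfb2 and Acvrl1 had a wide spread in shPostn, where replicate 3 lay above every other library. Acvrl1, with few counts, also varied among the controls (41, 35 and 14 counts).

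TGF-beta ligands are secreted as latent complexes, bound to matrix through latent TGF-beta binding proteins, and must be released before they bind a receptor. The released dimer brings the type II receptor TGFBR2 together with the type I receptor TGFBR1, which phosphorylates SMAD2 and SMAD3. Betaglycan presents ligand, above all TGF-beta 2, to this pair. Endoglin is best known from endothelium, where it works with the type I receptor ALK1 in BMP9 and BMP10 signalling towards SMAD1 and SMAD5, and it is also used as a surface marker of mesenchymal stem cells. In mesenchymal tumours the pathway is known for driving matrix production, and periostin is itself a TGF-beta-induced matrix protein.

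The 6 libraries were poly(A) RNA of sarcoma cells sorted as RFP+ out of tumours grown in mice. All derive from the line p53 KO Ccne1 OE, made from mesenchymal stem cells of female C57/Bl6 p53KO mice by retroviral overexpression of Ccne1 (cyclin E1) with the tracer RFP and then passaged through wild-type C57/Bl6 females. Loss of p53, Ccne1 and RFP are thus shared by both groups. The shSCR group (3 libraries) carries a scrambled viral hairpin and the shPostn group (3 libraries) a hairpin against Postn, which encodes periostin; titles call these WT and KO, although the method is a hairpin. The labels name 1 line and 1 hairpin per group and give neither the age or time of harvest nor whether libraries come from separate tumours. Every p therefore measures the spread between these samples, which may be technical, and a difference between the lines that is unrelated to periostin cannot be told apart from an effect of the hairpin.

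Library totals were 19603269 to 20376554 counts. Postn checked the labels: it measured 4097, 3602 and 3225 CPM (counts scaled to library size and TMM factors) in shSCR replicates 1, 2 and 3 and 217, 471 and 639 CPM in shPostn replicates 1, 2 and 3. Fibroblast and sarcoma markers were abundant in all libraries (12 genes, summed 30460 to 51660 CPM), although Thy1 reached only 0.256 to 3.89 CPM. The 18 leukocyte and macrophage markers summed to 68.1 to 271.8 CPM in 5 libraries and to 1283 CPM in shPostn replicate 3, so results that rest on that library are given with and without it. No leukocyte marker was at 0 in every library and none passed the test. Of 18 endothelial markers 12 stayed below 1 CPM in every library. Pecam1 (0.410 to 3.15 CPM), Cdh5 (0.359 to 3.30 CPM) and Kdr (0.0492 to 0.699 CPM) were low in each library, and Flt1 was the exception at 59.0 to 97.9 CPM.

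Of the 8 genes 2 passed edgeR's test at an adjusted p below 0.05, against 10.1% of all genes tested. The same 2 genes, Tgfb3 and Eng, were those whose libraries did not overlap between the groups, against 33.6% of all genes. The median log2 fold change of the 8 genes was 0.13, beside 0.01 over all 12819 genes. Log2 fold changes are shPostn minus shSCR throughout.

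**Figure D1:**
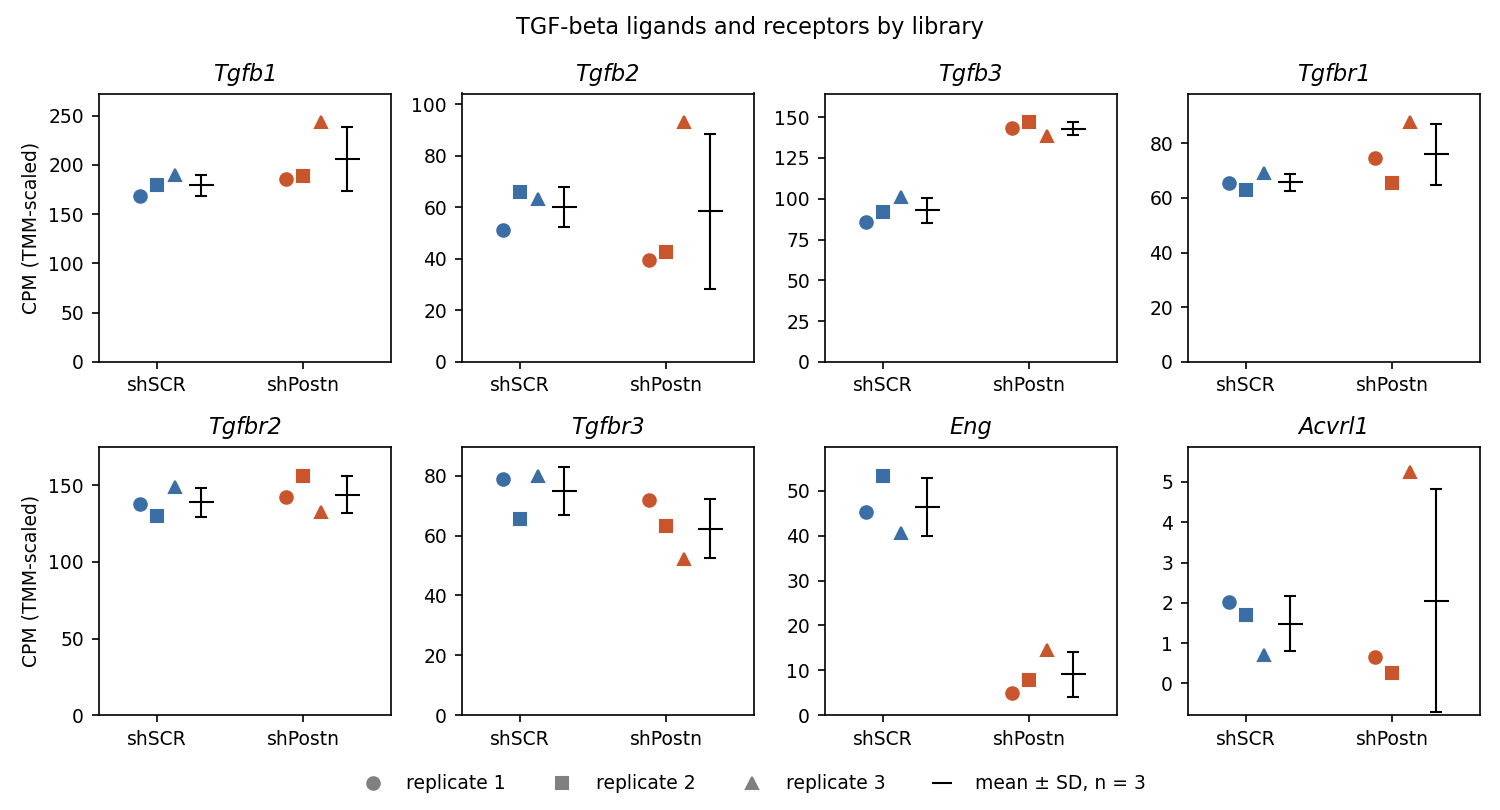
Level of each of the 8 genes in every library, in TMM-scaled CPM, with shSCR in blue and shPostn in orange, a symbol for each replicate and the mean ± SD (n = 3) in black; each panel has its own axis. Eng and Tgfb3 separate the groups, while shPostn replicate 3 (triangle) lies above all other libraries for Tgfb1, Tgfb2, Tgfbr1 and Acvrl1.

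Among the ligands, Tgfb3 rose in shPostn cells, and Tgfb1 and Tgfb2 did not pass the test. Tgfb3 (ENSMUSG00000021253; GRCm38 chromosome 12, 86056745 to 86079041, minus strand), which encodes a ligand prominent in developing mesenchyme, measured 85.9, 91.7 and 101 CPM in shSCR replicates 1 to 3, against 143, 147 and 139 CPM in shPostn replicates 1 to 3. All 3 shPostn libraries lay above all 3 controls, and they spread less than the controls did. Means were 92.9 ± 7.73 CPM and 142.8 ± 4.05 CPM (SD, n = 3 per group). The log2 fold change was 0.62 (SE 0.07, 95% interval 0.45 to 0.79, edgeR adjusted p = 0.00572). In bulk RNA a different number of cells with a transcript and a different amount per cell cannot be told apart. For Tgfb3 and likewise for Eng, exact permutation of the libraries (2-sided) returned p = 0.1, which is the minimum for groups of 3. The log2 fold change of Tgfb3 was 0.64 without shPostn replicate 3 (adjusted p = 0.00221).

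The rise of Tgfb3 was shared with its chromosome. On chromosome 12 the median log2 fold change of 374 genes above 4 CPM was 0.39, 91.4% of them had a positive value, and 61 of them (16.3%) had a value at or above that of Tgfb3. Of all 468 tested genes on chromosome 12, 35.7% were called higher, against 4.61% of all genes tested. Within 3 Mb of Tgfb3 62 neighbours were tested, of which 29 rose and 3 fell, with a median of 0.46. With the median of each chromosome taken out, the log2 fold change of Tgfb3 was 0.23 with an adjusted p of 0.119. What shifted the chromosome was not tested. Ttll5, a gene on the opposite strand that overlaps the Tgfb3 locus, had a log2 fold change of 0.68 (SE 0.10, adjusted p = 0.00884); the exons of both genes share 0 bases in GENCODE M21, and whether the counting used strand is not stated.

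The 3 genes whose profile over the 6 libraries was nearest to that of Tgfb3, by the root mean square difference of centred log2 CPM among 10566 other genes, were Gm20498 (0.045), Gstz1 (0.048) and Cipc (0.049). All 3 lie on chromosome 12. Cipc, for example, stood at 20.1, 19.5 and 21.8 CPM in shSCR and at 31.2, 31.1 and 30.1 CPM in shPostn. Its likeness to Tgfb3 follows from how it was picked, and Gstz1 and Cipc are among the 62 neighbours above.

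**Figure D2:**
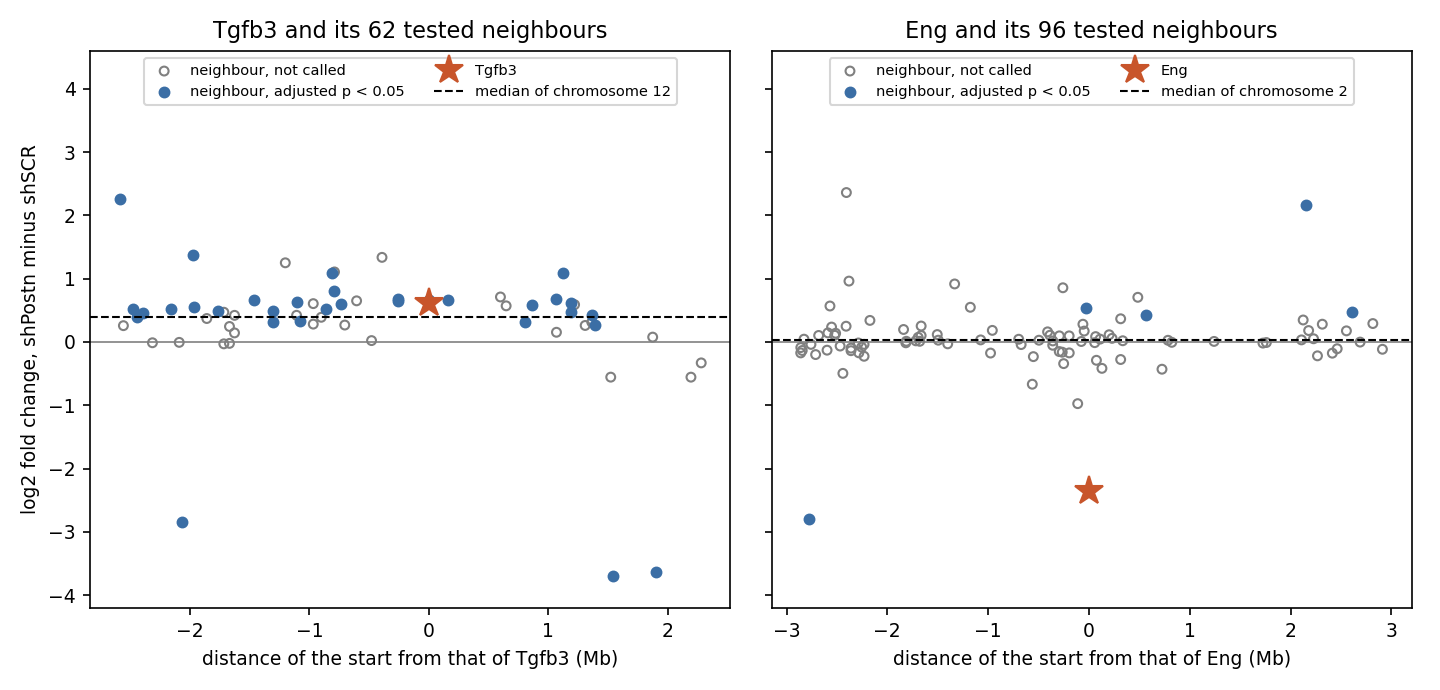
Log2 fold change (shPostn minus shSCR) of the tested genes within 3 Mb of Tgfb3 (left) and of Eng (right) against the distance of their starts in Mb; filled circles have an adjusted p below 0.05, the star is the named gene and the dashed line the median of its chromosome. Tgfb3 lies among 62 neighbours with a median of 0.46, whereas the 96 neighbours of Eng have a median of 0.02.

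Tgfb1 (ENSMUSG00000002603; chromosome 7, 25687002 to 25705077, plus strand), the ligand most studied in tumours and fibrosis, measured 168, 180.0 and 190 CPM in shSCR and 186, 189 and 243 CPM in shPostn. The groups overlapped, and shPostn replicate 3 was the highest library. The means were 179 ± 10.7 and 206 ± 32.3 CPM (log2 fold change 0.20, SE 0.11, 95% interval −0.07 to 0.47, adjusted p = 0.315). Without shPostn replicate 3 the log2 fold change was 0.06 (adjusted p = 0.590).

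Tgfb2 (ENSMUSG00000039239; chromosome 1, 186622792 to 186705989, minus strand), the isoform that depends most on betaglycan for receptor binding, measured 51.4, 66.0 and 63.1 CPM in shSCR and 39.6, 42.8 and 93.1 CPM in shPostn. Replicates 1 and 2 of shPostn lay below every control library and replicate 3 above every control library, so the group means of 60.2 ± 7.76 and 58.5 ± 30.0 CPM hide a split. Over all libraries the log2 fold change was −0.04 (SE 0.36, 95% interval −0.94 to 0.86, adjusted p = 0.957). Without shPostn replicate 3 it was −0.55 and passed the test (adjusted p = 0.0170), in a fit that called 17.1% of genes (9.2% as lower) and 3 of the 8, namely Tgfb2, Tgfb3 and Eng. In shPostn replicate 3 the summed leukocyte markers were also highest. With the leukocyte mean as a covariate the log2 fold change of Tgfb2 was −0.28 (adjusted p = 0.470). With the endothelial mean as a covariate it was 0.23 (edgeR adjusted p = 0.229).

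Ligand counts were also set against each other within libraries. Per 100 counts of Tgfb1, Tgfb3 had 51.0, 50.9 and 53.4 counts in shSCR and 77.0, 77.8 and 57 in shPostn. Tgfb2 had 30.5, 36.7 and 33.3 counts per 100 of Tgfb1 in shSCR and 21.3, 22.7 and 38.3 in shPostn. All 3 shPostn libraries thus had more Tgfb3 relative to Tgfb1 than any control, replicate 3 by the smallest margin. For Tgfb2 replicates 1 and 2 lay below every control and replicate 3 above. No test was made of these ratios.

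The signalling receptors stayed near their control levels, and neither passed the test. Tgfbr1 (ENSMUSG00000007613; chromosome 4, 47353222 to 47414931, plus strand), the type I receptor kinase ALK5, measured 65.4, 62.8 and 69.0 CPM in shSCR and 74.7, 65.3 and 87.6 CPM in shPostn. The groups overlapped through shPostn replicate 2. The log2 fold change was 0.21 (SE 0.11, 95% interval −0.05 to 0.46, adjusted p = 0.275), and 0.09 without shPostn replicate 3 (adjusted p = 0.495). Tgfbr2 (ENSMUSG00000032440; chromosome 9, 116084293 to 116175360, minus strand), the ligand-binding type II receptor kinase, measured 138, 130.0 and 149 CPM in shSCR and 143, 156 and 133 CPM in shPostn. Its libraries interleaved, with a log2 fold change of 0.05 (SE 0.08, 95% interval −0.15 to 0.25, adjusted p = 0.747), and 0.11 without shPostn replicate 3 (adjusted p = 0.405). In neither receptor does a missed threshold show that the groups are equal.

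Of the co-receptors, Eng fell strongly and Tgfbr3 did not pass the test. Eng (ENSMUSG00000026814; chromosome 2, 32646595 to 32682669, plus strand) measured 45.3, 53.4 and 40.7 CPM in shSCR and 4.93, 7.78 and 14.5 CPM in shPostn, that is 921, 1093 and 801 counts against 96, 154 and 291. Every shPostn library lay well below every control library, with replicate 3 the highest of the 3. Means were 46.5 ± 6.45 CPM and 9.08 ± 4.94 CPM (SD, n = 3 per group). The log2 fold change was −2.35 (SE 0.39, 95% interval −3.32 to −1.39, adjusted p = 0.0219). The summed counts gave a ratio, shSCR over shPostn, of 5.1 (2815 against 541 counts, 95% Clopper-Pearson interval 4.65 to 5.6, which covers counting error only). Only 0.702% of the genes tested were called lower with a log2 fold change at or below that of Eng.

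The call of Eng depended on which library was left out. Without shPostn replicate 3 the log2 fold change was −2.87 (adjusted p = 0.00130) and without shPostn replicate 1 it was −2.06 (adjusted p = 0.0234). With shSCR replicate 1, 2 or 3 left out in turn, the log2 fold change was −2.37, −2.24 and −2.44 and the adjusted p 0.0766, 0.0873 and 0.0744. Leaving out shPostn replicate 2 gave −2.25 and an adjusted p of 0.0698. With no count filter it was 0.0543.

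Endothelium expresses Eng, so the endothelial markers are given beside it. Without Flt1, the 17 other endothelial markers together summed to 8.22, 10.7 and 9.04 CPM in shSCR and to 4.05, 4.35 and 10.9 CPM in shPostn. Eng alone was above that sum in every library, by a wide margin in the controls. With Flt1 included, the 18 markers summed to 106.1, 106.8 and 87.41 CPM in shSCR. In shPostn that full sum was 63.05, 68.39 and 102.6 CPM. It was above Eng in every library, as was Flt1 by itself. With the mean of the 18 endothelial markers as a covariate the log2 fold change of Eng was −2.06 (adjusted p = 0.00127). Of these 18 markers 12 stayed below 1 CPM in every library. Whether endothelial cells contributed to the fall of Eng was not tested. Chromosome 2 as a whole did not shift, with a median log2 fold change of 0.03. Of 96 tested neighbours within 3 Mb of Eng 4 rose and 1 fell, against 4.61% and 5.53% of all genes tested. The 1 that fell, Cercam, named after its values were seen, had a log2 fold change of −2.79 (edgeR adjusted p = 0.0176). It was 1 of 2 neighbours with a change of at least the size of that of Eng. Fpgs, which overlaps Eng on the opposite strand and shares 61 of the 4048 exon bases of Eng, had means of 40.3 ± 1.25 CPM (shSCR) and 39.96 ± 4.78 CPM (shPostn; log2 fold change −0.01, adjusted p = 0.953).

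**Figure D3:**
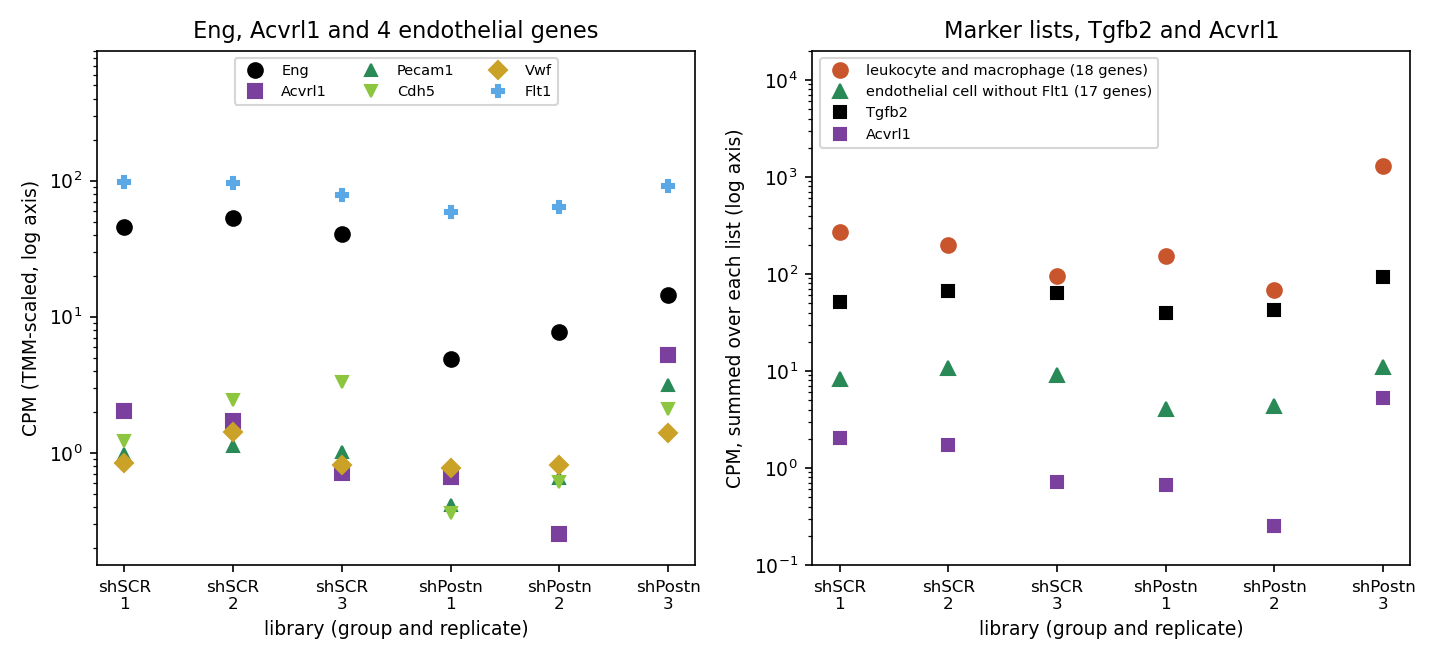
Left, CPM of Eng, Acvrl1 and 4 endothelial genes in each library on a log axis; right, summed CPM of the leukocyte and endothelial marker lists beside Tgfb2 and Acvrl1. Eng lies far above Pecam1, Cdh5 and Vwf in the controls but below Flt1 in every library. The endothelial sum leaves out Flt1. Among the libraries shPostn replicate 3 has the highest leukocyte sum, 1283 CPM, and the highest Tgfb2 and Acvrl1.

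The nearest profiles to Eng, by the same measure, were those of Abcb1a (root mean square difference 0.22), Lbx1 (0.23) and Ptprm (0.27). None lies on chromosome 2, and the differences were larger than those around Tgfb3. Ptprm, for example, measured 30.3, 32.9 and 26.7 CPM in shSCR and 3.59, 8.44 and 12.04 CPM in shPostn. Its likeness to Eng follows from how it was picked.

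The sequence before the start of Eng is shown because this gene had the deepest fall, and that of Tgfb2 because its libraries split; RefSeq (GRCm38.p6) had an entry for 5 of the 8 genes. Each run is the 250 bases before the annotated start, 5′ to 3′ on the strand of the gene. Capitals mark CAGAC, the core of the SMAD-binding element, on either strand, and in Tgfb2 also the E-box CACGTG and the TATA-box letters TATAAA.
Eng (chr2:32646345-32646594, plus strand): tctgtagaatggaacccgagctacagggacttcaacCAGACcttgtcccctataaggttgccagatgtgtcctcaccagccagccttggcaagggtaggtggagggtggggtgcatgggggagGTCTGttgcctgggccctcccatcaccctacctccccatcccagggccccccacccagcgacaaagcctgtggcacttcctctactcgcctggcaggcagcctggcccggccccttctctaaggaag
Tgfb2 (chr1:186705990-186706239, minus strand): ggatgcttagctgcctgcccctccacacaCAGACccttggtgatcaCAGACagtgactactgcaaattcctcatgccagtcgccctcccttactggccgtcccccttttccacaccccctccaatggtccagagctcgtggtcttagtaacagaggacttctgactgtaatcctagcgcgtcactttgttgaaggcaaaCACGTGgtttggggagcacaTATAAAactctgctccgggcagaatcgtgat

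In the Eng window CAGAC starts 214 bases before the start, and its reverse complement 127 bases before it. In Tgfb2 CAGAC occurs 221 and 204 bases before the start, CACGTG 51 bases and TATAAA 31 bases before it. On both strands CAGAC occurs in 42.2% of 32536 windows of this length, CACGTG in 6.04% and TATAAA in 12.3%. The search also covered CACCC (52.1% of windows), which occurs 4 times in Eng and once in Tgfb2, and GGGCGG (33.0%) and TTCCTG (25.6%), which are in neither; no match overlaps another. The windows hold 62.4% (Eng) and 53.6% (Tgfb2) G and C, against a median of 52.4%. These matches describe letters and not binding.

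Tgfbr3 (ENSMUSG00000029287; chromosome 5, 107106570 to 107289629, minus strand) measured 78.9, 65.5 and 80.1 CPM in shSCR and 71.8, 63.2 and 52.1 CPM in shPostn. The groups overlapped, with shPostn replicate 3 the lowest library. The means were 74.8 ± 8.10 and 62.3 ± 9.89 CPM (log2 fold change −0.26, SE 0.13, 95% interval −0.58 to 0.05, adjusted p = 0.258). Leaving out shPostn replicate 3 gave −0.15 (adjusted p = 0.383). Per 100 counts of Tgfbr3, Eng had 57.5, 81.6 and 50.8 counts in shSCR and 6.86, 12.3 and 27.9 in shPostn. Eng RNA was thus lower relative to Tgfbr3 RNA in each shPostn library than in any control. These counts are not divided by gene length. Per kilobase of merged exons the means of Eng and Tgfbr3 were 11.5 and 11.4 CPM in shSCR, and 2.24 and 9.52 CPM in shPostn.

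Acvrl1 (ENSMUSG00000000530; chromosome 15, 101128522 to 101145336, plus strand), the type I receptor that pairs with endoglin in endothelium, was the scarcest of the 8 genes. It had 41, 35 and 14 counts in shSCR and 13, 5 and 105 counts in shPostn, or 2.02, 1.71 and 0.711 CPM and 0.667, 0.253 and 5.25 CPM. Replicates 1 and 2 of shPostn were the lowest libraries and replicate 3 the highest, the same split as for Tgfb2. The log2 fold change was 0.47 with an SE of 1.07 (95% interval −2.15 to 3.09, adjusted p = 0.816). Without shPostn replicate 3 it was −1.68 (SE 0.60, adjusted p = 0.0950). Within each group Acvrl1 followed the order of the summed leukocyte markers, which were 271.8, 197 and 94.9 CPM in shSCR and 152.9, 68.1 and 1283 CPM in shPostn. With the leukocyte mean as a covariate the log2 fold change of Acvrl1 turned to −0.97 (SE 0.29, adjusted p = 0.0571). The endothelial sum without Flt1 was also highest in shPostn replicate 3 (10.9 CPM). With the endothelial mean as a covariate the log2 fold change of Acvrl1 stayed positive at 0.68 (SE 0.455, edgeR adjusted p = 0.367). Which cells the Acvrl1 counts came from was not tested. Gdf2 and Bmp10, which encode BMP9 and BMP10, did not exceed 0.344 CPM in any library.

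**Figure D4:**
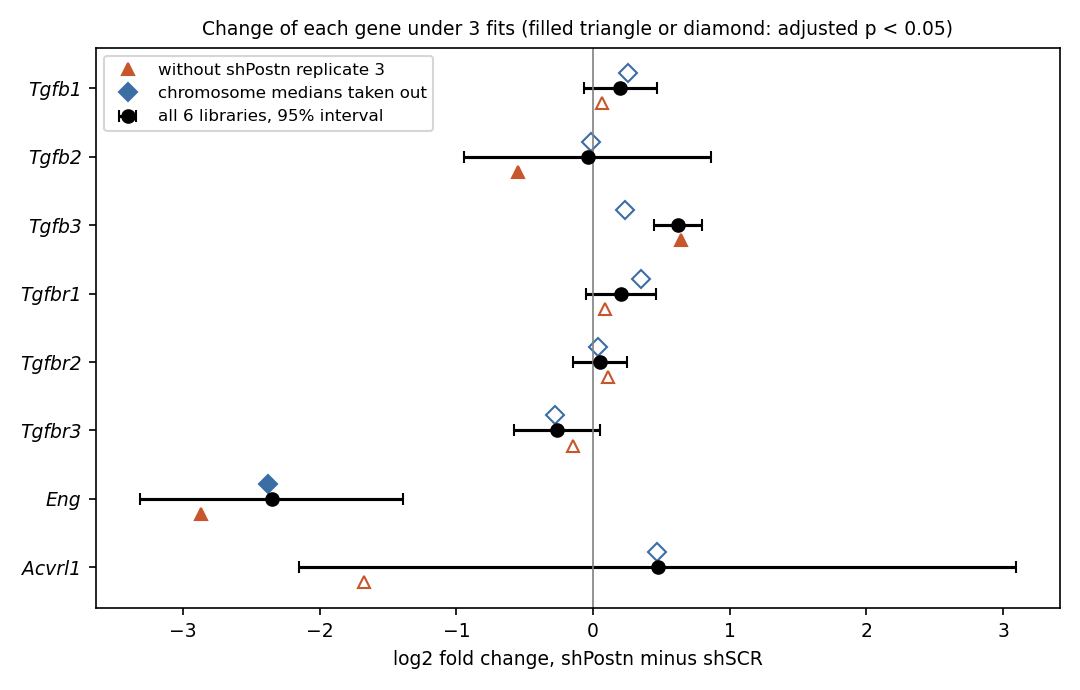
Log2 fold change (shPostn minus shSCR) of the 8 genes with its 95% interval from all 6 libraries (black), and the estimate without shPostn replicate 3 (triangles) and with chromosome medians taken out (diamonds), filled where the adjusted p is below 0.05. Eng is called in all 3 fits, Tgfb3 moves from 0.62 to 0.23 once the chromosome 12 median is taken out, and without replicate 3 Acvrl1 shifts most, to −1.68.

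Levels of different genes were compared as CPM per kilobase of merged exons. In shSCR the order of these levels was Tgfb1 (35.6 ± 2.12), Tgfb3 (27.5 ± 2.29), Tgfbr2 (17.0 ± 1.16), Eng (11.5 ± 1.59), Tgfbr3 (11.4 ± 1.24), Tgfb2 (10.4 ± 1.34), Tgfbr1 (10.1 ± 0.477) and Acvrl1 (0.347 ± 0.160). The steps from Eng to Tgfbr3, to Tgfb2 and to Tgfbr1 stayed within 1 SD. Those from Tgfb1 to Tgfb3, to Tgfbr2 and to Eng exceeded it, as did that from Tgfbr1 to Acvrl1. In shPostn Tgfb3 (42.2 ± 1.20) and Tgfb1 (40.9 ± 6.40) led with overlapping values, and Eng (2.24 ± 1.22) stood last but for Acvrl1 (0.482 ± 0.650).

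Of the summed per-length level of the 3 ligands, Tgfb1 took 48.5% ± 0.766 in shSCR and 43.7% ± 1.84 in shPostn, and Tgfb3 took 37.4% ± 0.815 and 45.8% ± 5.93. The share of Tgfb2 was 14.1% ± 1.14 in shSCR and 7.94%, 8.39% and 15.3% in the shPostn libraries. The share of Tgfb1 depends on the length used, because its longest transcript (2573 bases) is shorter than its merged exons (5042 bases): with longest transcripts it was 64.0% ± 0.740 in shSCR and 59.7% ± 1.55 in shPostn, and Tgfb1 then led in both groups.

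The other genes of the pathway, in 7 lists by role, comprised 101 genes of which 83 were tested; 13 rose and 6 fell (22.9%), against 4.61% higher and 5.53% lower over all genes. Postn, the target of the hairpin, is 1 of the 6. The lists were chosen with earlier results of these data known, so these counts are not independent evidence. Their median log2 fold change was 0.10. Without shPostn replicate 3 the counts were 13 and 11, in the fit that called 17.1% of all genes, and with chromosome medians taken out 8 and 4, in a fit that called 5.1% of all genes.

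Of 18 tested genes of latency and ligand activation 4 rose and 1 fell, but without shPostn replicate 3 the counts were 4 and 4, and with chromosome medians taken out 2 and 1. The lower genes in the fit without that library, named after their values were seen, were Lrrc32 (−1.06), Itgb3 (−1.81), Mmp2 (−0.44) and Fbn1 (−0.63), of which only Lrrc32 was called from all libraries. Itgb8, a subunit of an integrin that releases latent TGF-beta, had a mean of 7.24 CPM in shSCR and 17.4 CPM in shPostn (log2 fold change 1.26, SE 0.12, adjusted p = 0.00313). Itgb8 lies on chromosome 12, and its log2 fold change was 0.87 with chromosome medians taken out (edgeR adjusted p = 0.0122). Mmp9, a gelatinase, rose from 24.2 to 53.0 CPM (1.13, SE 0.24). The other members called, named after their values were seen, were the matrix activator Thbs1 (0.91), the latent TGF-beta binding protein gene Ltbp3 (0.45) and Lrrc32. Lrrc32 encodes GARP, which holds latent TGF-beta on the cell surface, and it measured 20.96, 27.6 and 23.9 CPM in shSCR and 11.9, 11.3 and 12.8 CPM in shPostn, without overlap (log2 fold change −1.01, SE 0.12, adjusted p = 0.00556). Its value was −0.95 with chromosome medians taken out (adjusted p = 0.00935). Without shPostn replicate 3 the adjusted p was 0.0702 for Thbs1 and 0.0750 for Mmp9, and with chromosome medians taken out 0.0572 and 0.0552.

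Of 4 tested ligands of other branches Bmp4, a bone morphogenetic protein, fell, with means of 20.9 CPM in shSCR and 7.87 CPM in shPostn (log2 fold change −1.41, SE 0.23, adjusted p = 0.0152). Inhba, the activin A subunit and the most abundant of these ligands by counts, measured 356 to 382 CPM in shSCR and 364 to 423 CPM in shPostn (log2 fold change 0.07, adjusted p = 0.589). Of 8 other type I and type II receptors Acvr1 (ALK2, a BMP and activin type I receptor) rose from 83.0 to 112.5 CPM (0.44, SE 0.06, adjusted p = 0.00663) and Bmpr1b, a BMP type I receptor, fell from 17.2 to 12.2 CPM (−0.49, SE 0.11, adjusted p = 0.0375). Of 8 other accessory receptors 0 passed edgeR's test, with 0 at the same threshold in DESeq2 and 0 at an unadjusted p under 0.05; Cd109, Nrp1, Nrp2 and Vasn were the most abundant of them.

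Of 5 tested SMAD transducers Smad2, a direct substrate of TGFBR1, fell, with means of 67.2 and 47.98 CPM (log2 fold change −0.49, SE 0.08, adjusted p = 0.0126). Smad2 lies on chromosome 18, where the median log2 fold change was −0.45 and 48.4% of tested genes were called lower. With that median taken out its log2 fold change was −0.04 (adjusted p = 0.809). Smad3, the other TGF-beta SMAD, measured 23.7, 32.6 and 48.0 CPM in shSCR and 39.9, 44.2 and 46.2 CPM in shPostn, with overlap (0.32, adjusted p = 0.466).

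Of 21 tested inhibitors and regulators 5 rose and 1 fell. Fstl3, a secreted activin antagonist, rose, with means of 21.6 and 35.0 CPM (log2 fold change 0.70, SE 0.12, adjusted p = 0.0147) and Pmepa1, which limits SMAD activation, from 158.6 to 247 CPM (0.64, SE 0.14; adjusted p = 0.0566 with chromosome medians taken out). The others called, named after their values were seen, were the SMAD repressor Skil (0.43), the ubiquitin ligase Smurf2 (0.39), the SMAD phosphatase Ppm1a (0.43) and the ubiquitin ligase Nedd4l (−0.38). Ppm1a lies on chromosome 12 and Nedd4l on chromosome 18, and their values became 0.04 and 0.07 once those medians were taken out (adjusted p = 0.814 and 0.654).

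Of 19 tested target genes 3 rose and 1, Postn itself, fell. Tagln, an actin-binding protein of contractile cells, rose, with means of 3.33 and 30.1 CPM (log2 fold change 3.17, SE 0.55, adjusted p = 0.0264; 0.0630 without shPostn replicate 3), and Lrrc15 (2.15) and Snai1 (0.39), named after their values were seen, also rose; on removal of chromosome medians the adjusted p of Snai1 was 0.0652. The BMP targets Id1, Id2 and Id3 did not pass, with log2 fold changes of 0.46, 0.89 and 0.13; without shPostn replicate 3 these were 0.62, −0.35 and −0.07.

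**Figure D5:**
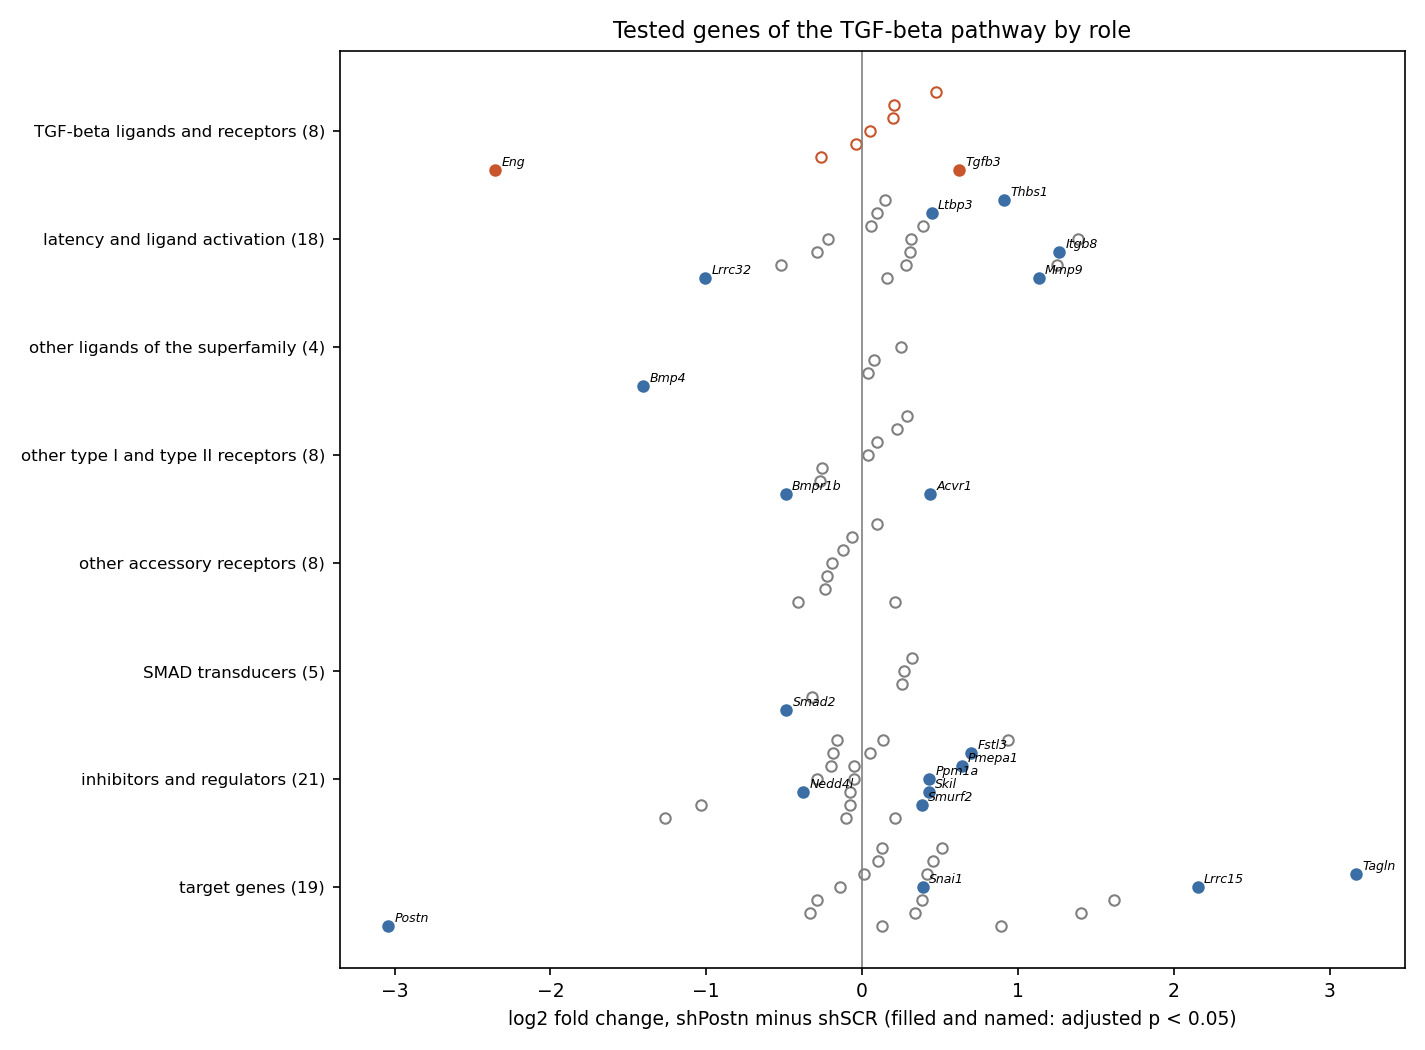
Log2 fold change (shPostn minus shSCR) of every tested gene of the pathway by role, with the number tested per row in brackets and the height within a row used only to separate points. Filled and named points have an adjusted p below 0.05; Eng (−2.35) and Tgfb3 (0.62) are the filled points among the 8 ligands and receptors.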

How the data were processed

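RNA was measured in 3 shSCR and 3 shPostn libraries, made as strand-specific mRNA libraries on the DNBSEQ platform per the labels' protocols. The deposited values are estimated counts per Ensembl gene, for which the submitters' processing notes name Salmon and mm10; their versions, the annotation and any use of strand in counting were not stated. Every value was a whole number. IDs were matched to GENCODE M21 (GRCm38): 35422 of 35727 had a symbol, and unmatched IDs held 0.0536% to 0.0791% of counts. Counts were tested with edgeR 4.0.16 in R 4.3.3 (filterByExpr with a minimum count of 10, TMM, robust quasi-likelihood F-test, Benjamini-Hochberg over 12819 genes, threshold 0.05). The SE is the size of the log2 fold change over the square root of F, and 95% intervals use the model's degrees of freedom. Alternatives were RLE or no composition factors, 2 other count filters, DESeq2 1.42.0, limma-voom (limma 3.58.1), a replicate block, leukocyte or endothelial means as covariates, chromosome medians (genes above 4 CPM) taken out through offsets, and each library left out. The test was checked on simulated data, where it recovered 60% of 2-fold and 91% of 4-fold changes. Of 165 calls there 14 were false. Per-length levels divide CPM by merged exon length.

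The genes named beyond the 8 were the 2 largest called changes per list, the 3 nearest profiles (log2 of CPM plus 0.5) and the neighbours within 3 Mb; others are named as such or given as background. The members and lists were chosen with earlier results of these data known. No batch is labelled, so none was modelled. Among the other marker lists 2 genes were called: Des, of the pericyte and smooth muscle list, fell, and Twist1, of the mesenchymal list, rose; the T, NK and B cell and epithelial lists had 1 tested gene each and no call.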

Additional observations from a re-analysis of the deposited data

How the results depend on the processing

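Tgfb3 kept its call in 15 of 16 alternatives and Eng in 10 of 16, and the direction of both held in all 16. The number of the 8 genes called was 1 with no count filter, with the replicate block or with chromosome medians taken out, 4 with the endothelial covariate, and 1 to 3 with a library left out. The genes called (1300) were 1973 with DESeq2, 735 with the block, 2197 with the leukocyte covariate, 1615 with the endothelial covariate, 1289 with no count filter (of 19462 tested), 654 with chromosome medians taken out and 307 (without shSCR replicate 2) to 2220 (without shPostn replicate 3) with a library left out; the pathway genes called (19) were 33 with DESeq2, 15 with the block, 12 with chromosome medians taken out and 5 to 24 with a library left out.

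The log2 fold change of Eng was −2.36 with no count filter (adjusted p = 0.0543), −2.46 with the block (adjusted p = 0.0723) and −2.87 to −2.06 with a library left out. That of Tgfb3 was 0.23 with chromosome medians taken out. With the endothelial covariate Tgfb1 (0.30) and Tgfbr3 (−0.41) passed, Tgfb2 was 0.23 and Tgfbr2 −0.0198. Acvrl1 was −0.45 with limma-voom, −0.54 with the block and −0.97 with the leukocyte covariate (adjusted p = 0.0571). With a library left out Tgfb2 ran from −0.55 to 0.17, Tgfbr2 from −0.014 to 0.11 and Acvrl1 from −1.68 to 0.99. The Tgfb1 share of the ligands in shSCR was 64.0% with longest transcripts. The cause of these shifts was not tested.

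Replicate numbers gave no sign of pairing: same-numbered libraries deviated from their group means with correlations of −0.07, −0.13 and −0.44. With 3 libraries per group these values cannot exclude it. Acvrl1 had the fewest counts of the 8 genes, 5 to 105 per library.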
